A study of Mus musculus with 6 samples.

Results

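The collagen genes were described in 6 RNA libraries, of which 3 came from mammary glands and 3 from tumours of that tissue. They were the rows of the expression table whose symbol consists of Col, a type number, the letter a and a chain number, and they numbered 44 of 24421 genes. All donors were 5-month-old female FVB/NJ mice with a transgene that encodes the long non-coding RNA LINK-A. The gland donors are given as FVB/NJ; Tg(LINK-A) and the tumour donors as FVB/NJ; MMTV-Tg(LINK-A), where MMTV stands for the mouse mammary tumour virus promoter, whose activity is mostly in the epithelium of the mammary gland. The donor genotype as labelled and the tissue changed together, so they cannot be told apart. The values are FPKM, a read level scaled by transcript length and library size, and can be compared between genes because they are per transcript length. Replicates are named as separate samples, with nothing on separate animals, so the p-values measure the spread between these samples, which may be technical.

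Collagens are extracellular proteins in which chains wind into a triple helix. Fibrillar collagens form the load-bearing fibres of connective tissue, and fibroblasts make most of them. Type IV collagen builds the sheet-like network of basement membranes, which lies under epithelium and around vessels, fat cells and muscle. The FACIT collagens (fibril-associated collagens with interrupted triple helices) sit on the surface of fibrils, type VI forms beaded filaments around cells, and the short-chain collagens VIII and X form open networks. In breast tumours, the amount and kind of collagen around the epithelium is a widely studied feature of the stroma.

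The summed collagen level was lower in the tumours, and the make-up of the sum differed. The 44 genes summed to 1935, 1820.3 and 1811 FPKM for glands 1 to 3 and to 635, 817 and 432 FPKM for tumours 1 to 3. Every tumour lay below every gland, and tumour 3 was the lowest. Fibrillar genes made up 64.2%, 66.1% and 64.1% of the collagen sum in the glands and 49.3%, 50.2% and 39.4% in the tumours. FACIT genes made up 4.84% to 5.17% in the glands and 22.7% to 29.4% in the tumours. The share of the basement membrane genes overlapped between the groups, at 17.2% to 19.8% in the glands and 16.7% to 23.9% in the tumours. In such bulk samples fewer cells of a type and less RNA per cell cannot be told apart.

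**Figure D1:**
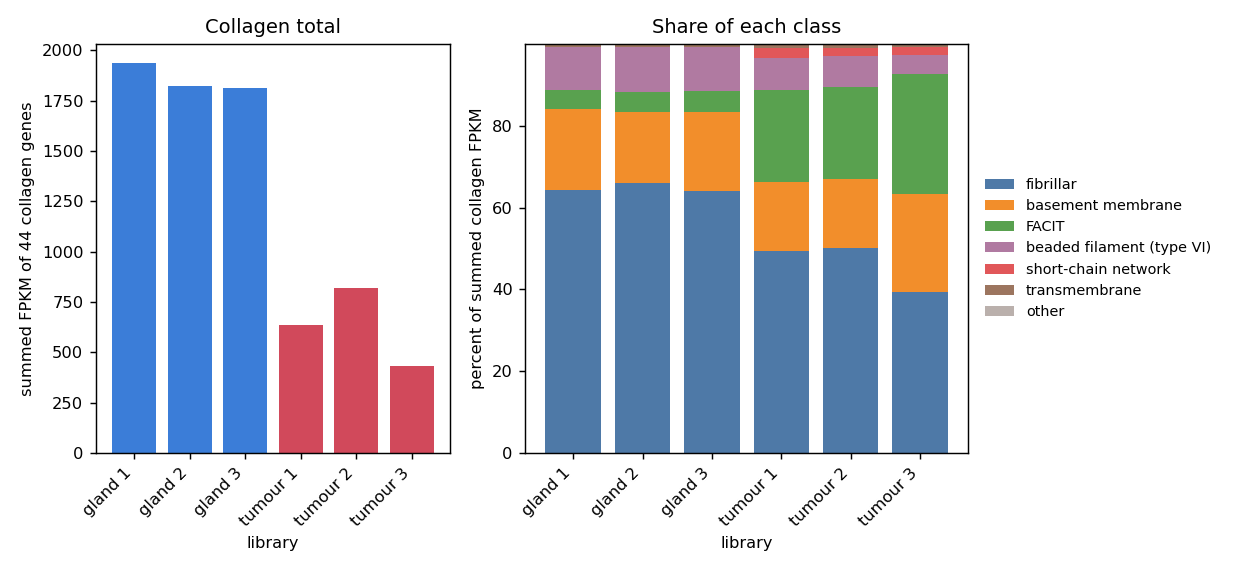
Left, summed FPKM of the 44 collagen genes in each library (bars, 1 library each). Right, the percent of that sum in each collagen class. The sum is 1811 to 1935 FPKM for the glands and 432 to 817 FPKM for the tumours, and the FACIT share is 4.84% to 5.17% and 22.7% to 29.4%.

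The level of single genes was tested on log2(FPKM + 1) with limma for the 13364 genes that averaged 1 FPKM or more over the 6 libraries, with Benjamini-Hochberg adjustment over all of them and a threshold of 0.05. Fold changes given below as log2 are tumour minus gland on this scale, which understates the change of low genes. Of the 44 collagen genes 28 reached that mean, and of these 16 were lower in the tumours, 8 were higher and 4 did not pass. Over all genes tested, 23.1% passed as lower, 21.9% as higher and 45.1% in either direction. At a change of at least 2-fold on the same scale 15 collagen genes were lower and 8 higher, against 14.5% and 7.67% of all genes tested. The median log2 fold change was -1.44 over the 28 collagen genes and 0.01 over all genes tested. For 24 of the 28 the 3 tumour values lay beyond the 3 gland values, against 58.2% of all genes tested. Col8a2 reached the minimum mean only through the tumours and Col13a1 only through the glands. A fit without glands 1 and 3, which had high lymph node genes, left only gland 2, which had high skeletal muscle genes. All 24 called collagen genes kept their direction there, though many no longer passed.

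**Figure D2:**
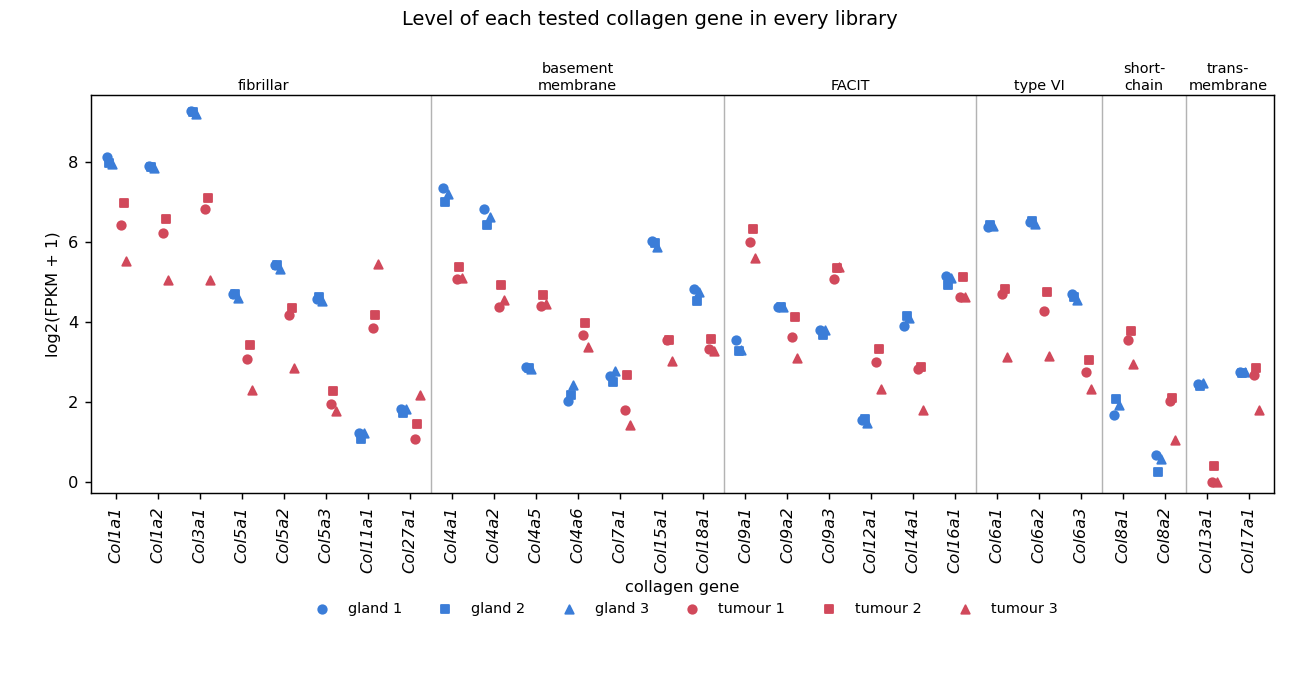
Level of the 28 tested collagen genes in every library, as log2(FPKM + 1), grouped by class; blue symbols are glands, red symbols tumours, and the symbol shape gives the replicate number. Glands and tumours separate for 24 genes and overlap for Col27a1, Col7a1, Col16a1 and Col17a1.

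The tumours were not equally low. Of the 16 collagen genes that fell, tumour 3 held the lowest tumour value for 13 and tumour 1 for 3. Among the 8 that rose, tumour 3 was the lowest tumour for 5 and tumour 1 for 3. For the 4 that did not pass, the counts were 3 and 1. No such share was taken over all genes tested. Markers of stromal cells differed between the groups and among the tumours in the same libraries. The counts of markers below stand against 58.2% of all genes tested whose groups did not overlap, in either direction. All 9 fibroblast markers, among them Pdgfra, Pi16 and Fap, had every tumour below every gland, and their sum was 1343 to 1473 FPKM across the glands and 128, 121 and 43.1 FPKM for tumours 1 to 3. Tcf21 was listed at 0 in all 3 tumours. All 8 adipocyte markers (7581 to 9715 FPKM across the glands, 39.8 to 288 FPKM across the tumours) and all 8 endothelial markers (203 to 231 FPKM and 26.1 to 50.3 FPKM) were lower in every tumour. Of the 8 pericyte and smooth muscle markers 7 were, with sums of 194 to 380.3 FPKM and 53.3 to 62.3 FPKM. The upper end was gland 2, where Des alone stood at 222 FPKM, against 10.6 FPKM in gland 1 and 31.9 FPKM in gland 3. All 8 luminal epithelium markers were higher in every tumour, at 1086 to 1155 FPKM across the glands and 2945 to 3322 FPKM across the tumours. The 8 basal and myoepithelial markers summed to 589 to 629 FPKM and 115 to 324 FPKM, with 4 lower and 1 higher in every tumour. The 4 were Oxtr, Acta2, Cnn1 and Mylk, and the 1 was Krt17, while Krt5, Krt14 and Trp63 overlapped. Acta2 alone averaged 333 FPKM across the glands and 34.2 FPKM across the tumours, so the sum does not describe the whole list. Skeletal muscle markers were high in gland 2 (12650 FPKM, against 13.9 FPKM in gland 1, 1118 FPKM in gland 3 and 6.77 to 29.2 FPKM across the tumours), and lymph node markers in glands 1 and 3 (211.5 and 207 FPKM, against 36.5 FPKM in gland 2 and 1.69 to 44.8 FPKM across the tumours). The Schwann cell markers summed to 98.8 to 126 FPKM across the glands and 133 to 244 FPKM across the tumours, with 2 of the 6 higher and 4 lower in every tumour. The part of these cell types in the collagen levels was not tested.

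Of the 8 fibrillar genes tested 6 fell, 1 rose and 1 did not pass. Col3a1, which encodes the chain of type III collagen found in pliable tissues, stood at 628, 617 and 590.4 FPKM for glands 1 to 3 and at 113, 136 and 31.9 FPKM for tumours 1 to 3. It was the most abundant collagen of each gland and of tumours 1 and 2, and ranked 7 among the collagens in tumour 3. Among all genes it took places 111 to 122 in the glands and places 536 to 2702 in the tumours. Its log2 fold change was -2.94 (SE 0.50, adjusted p = 0.00344), and it was -2.30 without tumour 3. The gene lies on chromosome 1 of mm10 (45311538 to 45349706), 24614 bases from Col5a2 on the other strand. Col1a1 and Col1a2 encode the chains of type I collagen, the main fibre protein of skin, bone and stroma. Col1a1 (chromosome 11, 94936224 to 94953042) stood at 279.8, 254 and 250.1 FPKM across the glands and 84.6, 125 and 45.4 FPKM across the tumours (log2 fold change -1.72, SE 0.33, adjusted p = 0.00594). Col1a2 (chromosome 6, 4504814 to 4541544) stood at 240.4, 236 and 231 FPKM across the glands and 74.2, 95.6 and 32.3 FPKM across the tumours (log2 fold change -1.93, SE 0.36, adjusted p = 0.00534). The glands lay close together for all 3 genes, and the tumours spread over a wider range with tumour 3 at the bottom.

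The ratio of the type I chains overlapped between the groups, and that of type III to type I did not. Within a library, the ratio of Col1a1 to Col1a2 was 1.16, 1.08 and 1.08 in the glands and 1.14, 1.31 and 1.41 in the tumours. The ratio of Col3a1 to Col1a1 was 2.24, 2.43 and 2.36 in the glands and 1.33, 1.09 and 0.702 in the tumours. These and the ratios given below were chosen with their values in view and carry no test.

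Set against the 9 fibroblast markers one at a time within each library, the ratio of Col1a1 to the marker was higher in every tumour than in any gland for 7, overlapped for Mfap5, and could not be formed for Tcf21, which was listed at 0. For Col3a1 the ratio was higher in every tumour for 4, overlapped for 3 and was lower in every tumour for Mfap5. The ratio of Col1a1 to Pdgfra, which encodes a growth factor receptor, was 10.9, 9.23 and 9.71 in the glands and 37.7, 47.8 and 83.9 in the tumours. That of Col3a1 to Mfap5, a gene of elastic microfibrils, was 10, 7.25 and 8.11 in the glands and 3.01, 4.68 and 4.69 in the tumours. The direction for Col3a1 relative to fibroblast genes thus depended on the marker, whereas the ratio of Col1a1 was lower in every tumour for no marker.

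Type V collagen is a minor fibrillar type that is built into type I fibrils and limits their width. Col5a1 was at 25.0, 25.2 and 23.4 FPKM across the glands and at 7.36, 9.69 and 3.88 FPKM across the tumours (log2 fold change -1.75, SE 0.27, adjusted p = 0.00234). Col5a2 was between 38.9 and 42.4 FPKM across the glands and between 6.25 and 19.3 FPKM across the tumours (-1.60, SE 0.37, adjusted p = 0.012). Col5a3, whose chain is found in a subset of type V molecules, stood at 23.0, 23.9 and 22.1 FPKM across the glands and at 2.82, 3.83 and 2.38 FPKM across the tumours (-2.60, SE 0.15, adjusted p = 5.93e-05). Both Col5a1 and Col5a2 fell, and the third chain gene fell with them, with the ratio of Col5a3 to Col5a1 at 0.919 to 0.947 in the glands and 0.383 to 0.615 in the tumours.

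Col11a1 was the exception among the fibrillar genes tested, since it rose. It encodes a chain of type XI collagen, a minor fibrillar type best known from cartilage that can also join type V chains. It lies on chromosome 3 (114030540 to 114220718). Its level was 1.34, 1.10 and 1.33 FPKM for glands 1 to 3 and 13.3, 17.2 and 42.4 FPKM for tumours 1 to 3. The log2 fold change was 3.32 (SE 0.39, adjusted p = 0.000709), and the group means differed 19.4-fold. Tumour 3, which held the lowest tumour level of Col1a1, Col3a1 and Col5a1, held the highest of Col11a1. The ratio of Col11a1 to Col5a1 was 0.0438 to 0.0567 in the glands, and 1.81, 1.78 and 10.9 in tumours 1 to 3. Col27a1, a long fibrillar chain gene of cartilage, did not pass (2.45 ± 0.137 FPKM across the glands and 2.09 ± 1.23 FPKM across the tumours, mean ± SD, n = 3 each, log2 fold change -0.23 with a 95% interval of -0.90 to 0.44, adjusted p = 0.54). The partner gene Col11a2 was under the minimum mean, at 0.5, 0.515 and 0.595 FPKM across the glands and 0.184, 0.929 and 1.67 FPKM across the tumours, and the groups overlapped. Col2a1, the main fibrillar collagen of cartilage, reached at most 0.502 FPKM, in tumour 3, and Col24a1 at most 0.216 FPKM, in gland 2.

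**Figure D3:**
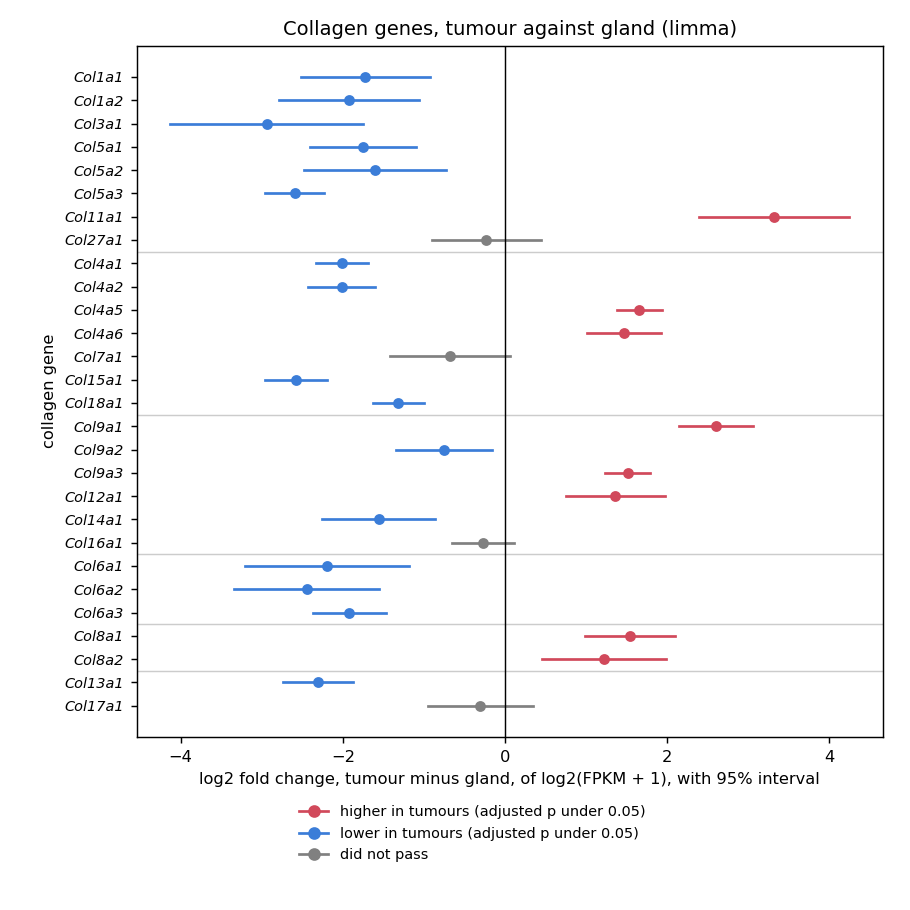
Log2 fold change of each tested collagen gene, tumour minus gland of log2(FPKM + 1), with the 95% interval from limma; blue genes were lower, red genes higher and grey genes did not pass. Col3a1 lies at -2.94, Col5a3 at -2.60 and Col11a1 at 3.32, and both directions occur among the fibrillar, basement membrane and FACIT genes.

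Of the 7 basement membrane genes tested 4 fell, 2 rose and 1 did not pass, and the type IV genes went both ways, by pair. Their 6 chain genes lie in head-to-head pairs, each pair read outward from a common stretch of DNA, and the chains form a few fixed trimers. The most widespread trimer joins the chains of Col4a1 and Col4a2, and another joins those of Col4a5 and Col4a6, which in other tissues occurs under some epithelia and around smooth muscle. The promoter windows of both pairs are shown because the members of a pair moved together and the pairs moved apart. Each runs from 250 bases before to 50 after a RefSeq start (build GRCm38.p6), 5′ to 3′ on the strand of the gene. Capitals mark matches to the GC box GGGCGG, the CCAAT box (those letters alone) and the TATA box TATAAA, each searched on both strands, where adjacent motifs can share letters. The windows are chr8:11312777-11313076 on the minus strand for Col4a1, chr8:11312555-11312854 on the plus strand for Col4a2, chrX:141474027-141474326 on the minus strand for Col4a6 and chrX:141475169-141475468 on the plus strand for Col4a5.
Col4a1: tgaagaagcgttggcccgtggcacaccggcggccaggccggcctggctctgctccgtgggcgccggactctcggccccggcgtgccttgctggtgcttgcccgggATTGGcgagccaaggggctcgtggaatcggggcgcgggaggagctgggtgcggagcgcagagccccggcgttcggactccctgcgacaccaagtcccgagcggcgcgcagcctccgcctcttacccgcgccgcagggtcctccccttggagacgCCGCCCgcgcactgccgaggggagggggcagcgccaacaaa
Col4a2: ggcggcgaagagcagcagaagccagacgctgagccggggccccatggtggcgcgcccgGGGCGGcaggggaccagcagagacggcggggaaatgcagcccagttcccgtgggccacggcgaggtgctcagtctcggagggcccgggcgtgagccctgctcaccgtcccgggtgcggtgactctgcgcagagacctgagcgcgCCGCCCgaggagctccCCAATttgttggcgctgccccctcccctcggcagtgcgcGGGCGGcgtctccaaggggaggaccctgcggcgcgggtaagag
Col4a6: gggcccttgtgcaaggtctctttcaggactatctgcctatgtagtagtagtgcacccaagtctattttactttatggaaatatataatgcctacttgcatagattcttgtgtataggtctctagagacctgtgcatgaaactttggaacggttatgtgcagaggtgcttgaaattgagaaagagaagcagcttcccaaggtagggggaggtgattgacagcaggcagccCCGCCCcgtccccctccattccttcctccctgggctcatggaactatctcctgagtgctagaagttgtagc
Col4a5: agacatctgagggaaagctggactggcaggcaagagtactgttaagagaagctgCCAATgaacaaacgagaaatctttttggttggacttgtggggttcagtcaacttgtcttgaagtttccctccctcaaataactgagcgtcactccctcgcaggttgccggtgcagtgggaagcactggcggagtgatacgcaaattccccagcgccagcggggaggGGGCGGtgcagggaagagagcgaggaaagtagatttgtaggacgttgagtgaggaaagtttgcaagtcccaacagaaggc

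The starts of Col4a1 and Col4a2 are 21 bases apart, with the first bases of both transcripts overlapping, and their windows share 78 bases. Those of Col4a6 and Col4a5 are 1343 bases apart and their windows share none. Bases G and C made up 74.0% and 73.7% of the windows of Col4a1 and Col4a2, and 48.3% and 52.7% of those of Col4a6 and Col4a5, where the median over all 32851 windows in the table was 52.7%. A GC box was found in all 4 windows, in 60.5% of the 38 windows of the 35 collagen genes listed there and in 35.7% of all windows. The GC box of the Col4a1 window lies in the 78 shared bases and is the same site as a GC box of the Col4a2 window. A CCAAT box was found in the windows of Col4a1, Col4a2 and Col4a5, in 34.2% of the collagen windows and in 37.4% of all. No TATA box was found in the 4, against 13.2% of the collagen windows and 13.6% of all. These matches describe the letters only.

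Col4a1 (chromosome 8, 11198423 to 11312826) stood at 164, 129 and 148 FPKM for glands 1 to 3 and at 33.0, 40.7 and 33.3 FPKM for tumours 1 to 3 (log2 fold change -2.01, SE 0.14, adjusted p = 8.82e-05). Col4a2 (chromosome 8, 11312805 to 11449287) stood at 113, 85.5 and 98.4 FPKM and at 19.8, 29.4 and 22.5 FPKM (log2 fold change -2.02, SE 0.17, adjusted p = 0.000203). Both genes thus fell about equally, and their ratio overlapped between the groups, at 1.45 to 1.51 in the glands and 1.38 to 1.66 in the tumours. Col4a5 (chromosome X, 141475385 to 141689234) stood at 6.27, 6.25 and 6.11 FPKM across the glands and at 19.98, 24.6 and 20.7 FPKM across the tumours (log2 fold change 1.65, SE 0.12, adjusted p = 0.000105). Col4a6 (chromosome X, 141165403 to 141474076) stood at 3.05, 3.53 and 4.36 FPKM across the glands and at 11.9, 14.7 and 9.38 FPKM across the tumours (log2 fold change 1.47, SE 0.19, adjusted p = 0.00109). This pair rose in every tumour, and its ratio of 1.40 to 2.06 in the glands overlapped with 1.67 to 2.21 in the tumours. The ratio of Col4a1 to Col4a5 went from 26.2, 20.6 and 24.2 in the glands to 1.65, 1.66 and 1.61 in the tumours. Col4a1 and Col4a2 made up 11.8% to 14.3% of the collagen sum in the glands and 8.31% to 12.9% in the tumours, while Col4a5 and Col4a6 went from between 0.481% and 0.578% to between 4.80% and 6.96%. The third pair, Col4a3 and Col4a4, known from the kidney filter, was under 0.25 FPKM in every library, and Col4a3 was listed at 0 in all 3 tumours.

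**Figure D4:**
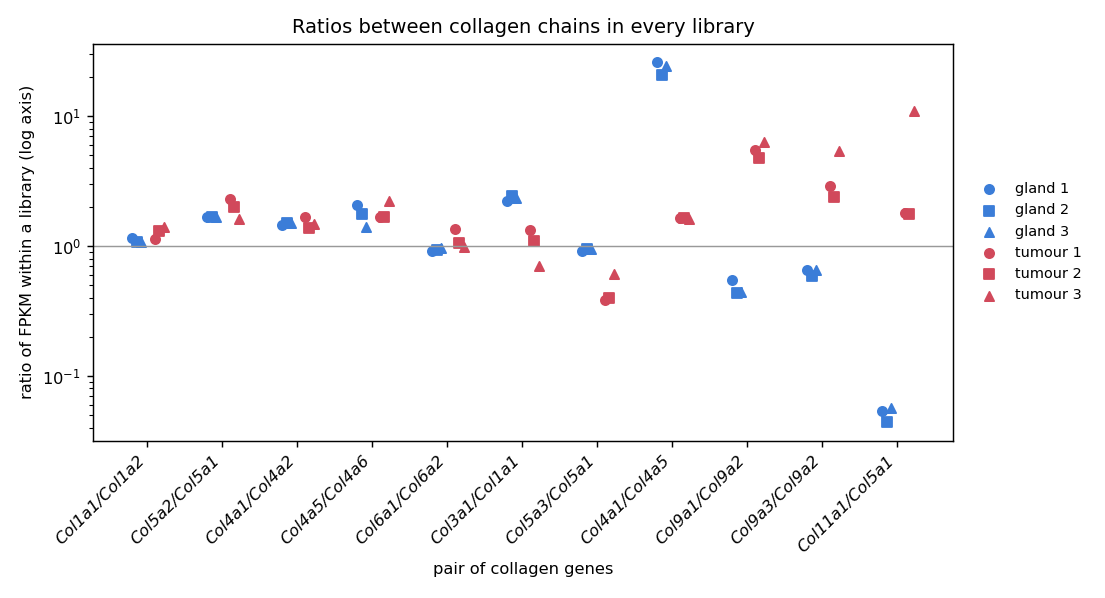
Ratio of FPKM between 2 collagen genes within each library, on a log axis; blue symbols are glands, red symbols tumours, and the symbol shape gives the replicate number. The ratios of Col1a1 to Col1a2 and of Col4a1 to Col4a2 overlap between the groups, while Col4a1 to Col4a5 is 20.6 to 26.2 in glands and 1.61 to 1.66 in tumours, and Col9a1 to Col9a2 is 0.437 to 0.544 and 4.76 to 6.35.

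Col15a1 and Col18a1 encode the multiplexins, collagens of the basement membrane zone whose end fragments include restin and endostatin. Col15a1 (chromosome 4, 47208161 to 47313167) stood at 63.8, 62.0 and 57.7 FPKM across the glands and at 10.7, 10.7 and 7.16 FPKM across the tumours (log2 fold change -2.58, SE 0.16, adjusted p = 7.14e-05). Col18a1 (chromosome 10, 77052178 to 77166548) stood at 27.3, 22.2 and 26 FPKM across the glands and at 9.01, 10.8 and 8.65 FPKM across the tumours (-1.32, SE 0.13, adjusted p = 0.000393). Both fell in every tumour. Slc19a1, which overlaps Col18a1 on the other strand, was at 8.02 to 10.8 FPKM across the glands and 4.87 to 6.99 FPKM across the tumours, and the sources used here do not say whether strand was used in counting. Col7a1, whose product forms the anchoring fibrils of skin and other stratified epithelia, stood at 5.27, 4.65 and 5.77 FPKM across the glands and 2.48, 5.35 and 1.65 FPKM across the tumours. The groups overlapped and the gene did not pass (-0.68, 95% interval -1.42 to 0.07, adjusted p = 0.12), though it did without tumour 2 (-1.03, adjusted p = 0.0114, range 0.0114 to 0.555 among its alternatives).

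Of the FACIT genes tested 3 rose, 2 fell and 1 did not pass. Type IX collagen, made of the chains of Col9a1, Col9a2 and Col9a3, coats type II fibrils in cartilage. Col9a1 has 2 RefSeq starts, of which the second gives a form with a shorter end domain, and the single value per gene does not tell them apart. Both windows are shown, at chr1:24177360-24177659 and chr1:24194953-24195252 on the plus strand, with the same motifs in capitals.
Col9a1, upstream start: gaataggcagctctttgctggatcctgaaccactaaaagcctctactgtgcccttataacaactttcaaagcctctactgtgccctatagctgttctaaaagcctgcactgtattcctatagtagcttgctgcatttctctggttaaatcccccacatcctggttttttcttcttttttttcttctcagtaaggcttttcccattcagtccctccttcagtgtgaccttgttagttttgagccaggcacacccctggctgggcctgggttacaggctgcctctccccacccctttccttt
Col9a1, downstream start: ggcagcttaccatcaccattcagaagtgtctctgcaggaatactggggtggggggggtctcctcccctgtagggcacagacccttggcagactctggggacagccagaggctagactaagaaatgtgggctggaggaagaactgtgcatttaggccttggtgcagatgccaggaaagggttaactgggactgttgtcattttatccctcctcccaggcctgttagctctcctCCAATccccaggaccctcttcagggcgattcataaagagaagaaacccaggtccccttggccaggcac

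The upstream window held none of the 3 motifs, and the downstream window held a CCAAT box. Col9a1 (chromosome 1, 24177610 to 24252684) stood at 10.7, 8.65 and 8.83 FPKM across the glands and at 63.1, 78.9 and 47.7 FPKM across the tumours (log2 fold change 2.60, SE 0.19, adjusted p = 0.00012). Among the 44 collagens it ranked 18 in each gland, 4 in tumours 1 and 2 and 1 in tumour 3, where it lay just above Col1a1 at 45.4 FPKM and Col11a1 at 42.4 FPKM. Col9a3 (chromosome 2, 180597790 to 180622189) stood at 12.8, 11.7 and 13.0 FPKM across the glands and at 32.8, 39.7 and 40.4 FPKM across the tumours (1.51, SE 0.12, adjusted p = 0.000146). Tcfl5, which overlaps Col9a3 on the other strand, was at most at 0.365 FPKM. Col9a2 (chromosome 4, 121039385 to 121055322), the third chain, moved the other way. It stood at 19.6, 19.8 and 19.8 FPKM across the glands and at 11.4, 16.6 and 7.50 FPKM across the tumours (log2 fold change -0.76, SE 0.25, adjusted p = 0.0443). That call was lost without gland 1, gland 2, gland 3 or tumour 1 (adjusted p = 0.0997, 0.1, 0.111 and 0.0882), with the direction kept, and its adjusted p ranged from 0.0102 to 0.331 among its alternatives. The ratio of Col9a1 to Col9a2 was 0.544, 0.437 and 0.446 in the glands and 5.54, 4.76 and 6.35 in the tumours. The listed cartilage and bone markers, which hold no collagen, were near 0 in the same libraries. The 7 genes summed to at most 0.29 FPKM in a gland and 0.878 FPKM in a tumour. The cartilage proteoglycan gene Acan was listed at 0 in the glands and at 0.0319, 0.0608 and 0 FPKM for tumours 1 to 3. Comp, the cartilage oligomeric matrix protein gene, is outside that list, among the fibril-associated genes, and was chosen after its values were seen. It stood at 0.163, 0.199 and 0.268 FPKM across the glands and 1.24, 1.997 and 7.67 FPKM across the tumours (1.68, adjusted p = 0.027), highest in tumour 3 as Col11a1 was. Comp reached the minimum mean only through the tumours and did not reach it without tumour 3, and its call was lost without gland 1, gland 2 or gland 3 (adjusted p = 0.0698, 0.0651 and 0.0719, range 0.00987 to 0.264 among its alternatives).

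Among the other FACIT genes, Col12a1, whose product is found on type I fibrils under load, stood at 1.91, 1.98 and 1.75 FPKM across the glands and 6.94, 9.04 and 4.02 FPKM across the tumours (log2 fold change 1.36, SE 0.26, adjusted p = 0.00532). The related Col14a1 stood at 14, 16.8 and 16.2 FPKM across the glands and 6.06, 6.35 and 2.47 FPKM across the tumours (-1.56, SE 0.29, adjusted p = 0.0052). So Col12a1 rose and Col14a1 fell, and Col12a1 was below Col14a1 in each gland and above it in each tumour. Col16a1 was the most abundant FACIT gene of the glands and did not pass, at 34.5, 29.4 and 33.3 FPKM there and 23.7, 33.7 and 23.6 FPKM across the tumours (-0.27, 95% interval -0.65 to 0.11, adjusted p = 0.211). It passed without tumour 2 (-0.43, adjusted p = 0.0447, range 0.0447 to 0.766 among its alternatives). The 3 remaining members of the class, Col19a1, Col20a1 and Col22a1, were under the minimum mean with overlapping groups.

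All 3 type VI genes above the minimum mean fell. Type VI collagen anchors cells such as fat and muscle cells to the matrix around them, and its basic trimer has the chains of Col6a1, Col6a2 and Col6a3. Col6a1 (chromosome 10, 76708792 to 76726168) stood at 83.0, 85.0 and 84.1 FPKM across the glands and at 25.0, 27.4 and 7.69 FPKM across the tumours (log2 fold change -2.20, SE 0.43, adjusted p = 0.00603). Col6a2, its neighbour on the same strand, stood at 90.6, 91.3 and 86.7 FPKM and at 18.3, 26 and 7.80 FPKM (-2.44, SE 0.38, adjusted p = 0.00223). Col6a3, on chromosome 1, stood at 25.1, 23.6 and 22.4 FPKM and at 5.66, 7.28 and 4.04 FPKM (-1.92, SE 0.19, adjusted p = 0.000351). For each of these genes the highest tumour lay below the lowest gland. The ratio of Col6a1 to Col6a2 was 0.915 to 0.970 in the glands and 0.986 to 1.36 in the tumours. The alternative chains Col6a4, Col6a5 and Col6a6, which lie next to each other on chromosome 9, were under the minimum mean. Col6a6 was at 0.537, 0.644 and 0.470 FPKM across the glands and was listed at 0, 0.0212 and 0 FPKM across the tumours.

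Both type VIII genes rose from low levels. Type VIII is a short-chain collagen of vessel walls and of the membrane behind the cornea. Col8a1 (chromosome 16, 57624258 to 57754737) stood at 2.17, 3.22 and 2.76 FPKM across the glands and 10.7, 12.6 and 6.77 FPKM across the tumours (log2 fold change 1.54, SE 0.23, adjusted p = 0.0021). Col8a2 stood at 0.585, 0.186 and 0.478 FPKM across the glands and 3.06, 3.24 and 1.05 FPKM across the tumours (1.22, SE 0.32, adjusted p = 0.0196). The call of Col8a2 was lost without gland 2, gland 3, tumour 1 or tumour 2 (adjusted p = 0.0555, 0.0567, 0.0616 and 0.0696, range 0.00166 to 0.145 among its alternatives). Col10a1, the short-chain collagen of growth plate cartilage, was under the minimum mean, at 0, 0.0829 and 0 FPKM across the glands and 2.25, 1.48 and 0.300 FPKM across the tumours. It lies within the span of Nt5dc1 on the other strand, which was at 5.72 to 8.17 FPKM, so that its low level is uncertain.

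The transmembrane collagens sit in the cell surface, with part of the chain outside the cell. Col13a1 (chromosome 10, 61838236 to 61979108), found at junctions of cells with the matrix and of nerve with muscle, stood at 4.48, 4.27 and 4.53 FPKM across the glands and was listed at 0, 0.305 and 0 FPKM across the tumours (-2.31, adjusted p = 0.000148). Its log2 fold change was -4.83 with a pseudocount of 0.1 in place of 1. Col17a1, the hemidesmosome collagen that ties basal epithelial cells to the basement membrane, did not pass, at 5.74, 5.57 and 5.72 FPKM across the glands and 5.32, 6.23 and 2.46 FPKM across the tumours (log2 fold change -0.30, 95% interval -0.96 to 0.35, adjusted p = 0.401). Tumours 1 and 2 lay around the gland level of Col17a1 and tumour 3 below it. Col23a1 was under the minimum mean, at 1.37, 0.905 and 0.896 FPKM across the glands and 0.268, 0.211 and 0.110 FPKM across the tumours. Col25a1, also of this class, was at most at 0.791 FPKM. Col26a1 and Col28a1 are not transmembrane collagens and were classed as other. They were at most at 1.15 FPKM, with Col26a1 lower in every tumour than in any gland. Over the 16 collagen genes under the minimum mean, the tumours lay above the glands for 2, below for 5 and overlapped for 9. No such share was taken over all genes under that mean, so whether these counts are unusual is not known.

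Genes that make and process collagen were read from lists, whose counts stand against 23.1% of all genes tested that were lower and 21.9% that were higher. Of the 84 list genes tested, 10 reached the minimum mean through 1 group only, so that they had to differ. Among the genes named from the lists these are Colgalt2, Pcolce2, Podn, Mmp9, Itga2, Lama2 and Lamc3 through the glands, and Mmp13 and Comp through the tumours. Without glands 1 and 3, which left 1 gland, the called genes named here kept their direction, though many no longer passed. Colgalt2 was the exception, since it fell under the minimum mean there and was not tested. Of 17 tested genes of folding and hydroxylation 9 were lower, 3 higher and 5 did not pass (median log2 fold change -0.51, against 0.01 over all genes tested). P4hb, a subunit of prolyl hydroxylase that is also the general protein disulfide isomerase, rose from 241 ± 6.43 to 561 ± 34.1 FPKM, by 1.22 on the log2 scale (levels as mean ± SD, n = 3 each, SE 0.11, adjusted p = 0.000209). The prolyl 3-hydroxylase genes P3h3 and P3h1 fell by 1.5 and 1.30 on the log2 scale (adjusted p = 0.000418 and 0.00156), and the collagen galactosyltransferase gene Colgalt2 went from 3.07 ± 0.131 to 0.269 ± 0.170 FPKM (adjusted p = 0.000496). A pair of genes chosen after their values were seen moved apart. Plod2, the lysyl hydroxylase of the collagen ends, stood at 3.49, 5.98 and 3.37 FPKM across the glands and at 21.6, 21.4 and 12.0 FPKM across the tumours (1.86, adjusted p = 0.00199). Serpinh1, the collagen chaperone HSP47, stood at 218, 149 and 241 FPKM across the glands and at 98.2, 86.4 and 34.9 FPKM across the tumours (-1.56, adjusted p = 0.0175), a call lost without gland 1 or gland 3 (adjusted p = 0.0527 and 0.0641, range 0.00679 to 0.316 among its alternatives). Of 7 export genes 2 were higher, 1 lower and 4 did not pass (median 0.10), shares near those of all genes tested. Mia3, which loads procollagen into large vesicles, rose by 0.76 (adjusted p = 0.00694) and the vesicle coat gene Sec23a fell by 0.61 (adjusted p = 0.014).

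Of 5 tested genes of propeptide cleavage 4 were lower and 1 was not called (median -1.65). They were the enhancers Pcolce2 (15.2 ± 2.50 FPKM across the glands and 0.751, 0.438 and 0 FPKM across the tumours, adjusted p = 9.03e-05) and Pcolce (52.3 ± 2.74 to 14 ± 7.15 FPKM, adjusted p = 0.00607), and the proteinases Adamts2 (8.85 ± 0.285 to 2.24 ± 0.907 FPKM, adjusted p = 0.00131) and Bmp1 (19.3 ± 0.512 to 10.8 ± 2.13 FPKM, adjusted p = 0.00582). Of 5 cross-linking genes 2 were lower and 3 not called (median -0.80). Loxl1, a lysyl oxidase best known from elastic fibres, fell from 55.1 ± 4.47 to 9.47 ± 3.62 FPKM (log2 fold change -2.49, adjusted p = 0.000529). The lysyl oxidase gene Lox stood at 14.1, 14.7 and 14.7 FPKM across the glands and 10.3, 12.0 and 3.79 FPKM across the tumours (-0.80, adjusted p = 0.109). It passed without tumour 3 (-0.36, adjusted p = 0.0373, range 0.0373 to 0.454 among its alternatives). The transglutaminase gene Tgm2, at 91.8 ± 8.40 and 101 ± 5.45 FPKM, did not pass (adjusted p = 0.322).

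Fibril-associated proteoglycans and glycoproteins had 12 of 16 tested genes lower, 2 higher and 2 not passing (median log2 fold change -2.02). The small proteoglycan decorin (Dcn), which binds and spaces collagen fibrils, stood at 504, 631 and 589 FPKM across the glands and 47.9, 44.5 and 7.61 FPKM across the tumours (-4.42, adjusted p = 0.00167). Lumican (Lum, -4.00, adjusted p = 0.00115), dermatopontin (Dpt, -4.22, adjusted p = 0.00143) and podocan (Podn, -2.24, adjusted p = 0.000844) fell as well. With tumour 3 left out, Dcn was at -3.60, Lum at -3.33 and Dpt at -3.47. Biglycan (Bgn) stood at 117, 109 and 112 FPKM across the glands and 94.6, 109.6 and 34.4 FPKM across the tumours and did not pass (-0.66, adjusted p = 0.225). Dpt is also in the fibroblast list.

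Of 11 tested genes of collagen breakdown and its inhibitors 7 were lower, 2 higher and 2 did not pass (median log2 fold change -0.95). The gelatinase genes Mmp9 (11.7 ± 0.722 to 0.622 ± 0.459 FPKM, adjusted p = 0.000148) and Mmp2 (92.1 ± 5.16 to 13.6 ± 5.02 FPKM, adjusted p = 0.00033) fell, as did Ctsk, the collagen-cleaving cathepsin K (40.7 ± 3.33 to 6.82 ± 3.61 FPKM, adjusted p = 0.00196). The collagenase gene Mmp13 rose from 0.228 ± 0.0417 to 2.80 ± 0.584 FPKM (adjusted p = 0.000661). Of 7 collagen receptor genes 4 were lower, 1 higher and 2 did not pass (median -1.17). The discoidin domain receptors, kinases that collagen activates, moved apart. Ddr1, the epithelial form, stood at 15, 13.1 and 13.7 FPKM across the glands and at 38.7, 51.0 and 76.8 FPKM across the tumours (1.87, adjusted p = 0.000977). Ddr2, the form of mesenchymal cells, stood at 10.5, 9.60 and 10.7 FPKM across the glands and at 2.18, 2.74 and 1.09 FPKM across the tumours (-1.95, adjusted p = 0.000678). The integrin alpha chains Itga2 (-1.53, adjusted p = 0.00109) and Itga1 (-1.17, adjusted p = 0.00303) fell, and their beta partner Itgb1, at 110.2 ± 1.82 and 128 ± 1.45 FPKM, did not pass (adjusted p = 0.0872).

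**Figure D5:**
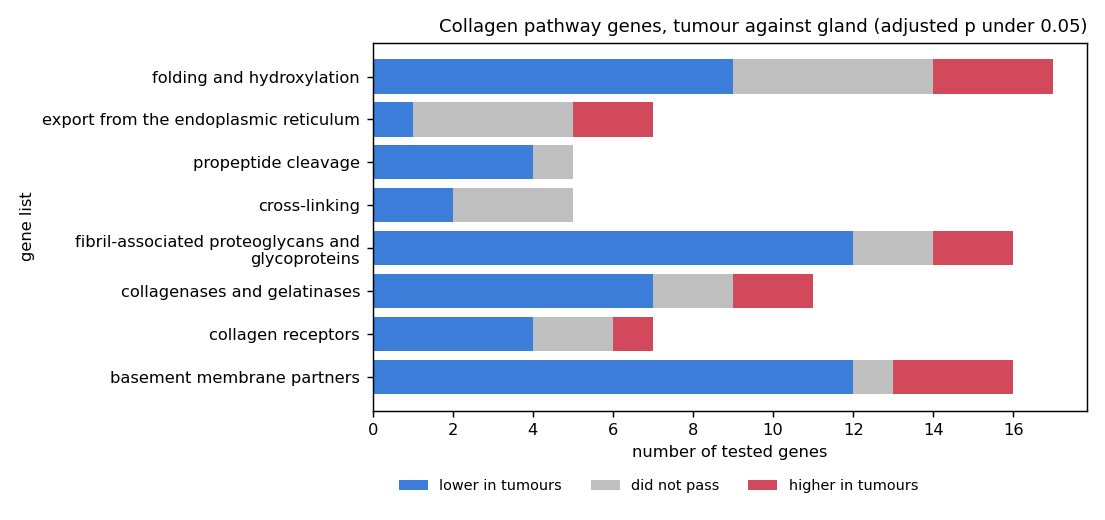
Number of tested genes in each list that were lower (blue), did not pass (grey) or were higher (red) in the tumours, at an adjusted p under 0.05 in limma over all genes tested. Lower genes outnumber higher ones in 7 of the 8 lists, with 12 of 16 lower among the fibril-associated genes and among the basement membrane partners, and the export list has 1 lower and 2 higher. Over all genes tested 23.1% were lower and 21.9% higher.

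The non-collagen parts of the basement membrane went both ways, as type IV collagen did. Of 16 genes 12 were lower, 3 higher and 1 did not pass (median log2 fold change -1.42). The laminin chains Lamc3 (7.60 ± 0.233 FPKM across the glands and 0.119, 0.0486 and 0 FPKM across the tumours, adjusted p = 2.93e-05), Lama2 (13.7 ± 0.702 to 0.666 ± 0.412 FPKM, adjusted p = 8.66e-05), Lamb1 (50.3 ± 0.553 to 8.56 ± 2.07 FPKM, adjusted p = 9.89e-05) and Lamc1 (45.5 ± 2.05 to 17.2 ± 1.95 FPKM, adjusted p = 0.000179) fell. The 3 that rose were Lama5 (1.14, adjusted p = 0.0119), Lamb3 (0.75, adjusted p = 0.00531) and the proteoglycan agrin (Agrn, 0.73, adjusted p = 0.00784), named after their values were seen. Lama5 encodes a laminin chain common under epithelia and Lamb3 a chain of the hemidesmosome laminin.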

How the data were processed

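Total RNA was sequenced from mammary tissue, as 3 gland and 3 tumour libraries. Per the submitters' processing notes, HISAT2, StringTie and the build mm10 were used, with no version or role. Neither the annotation nor the strandedness is given in the sources used here. The deposited table holds 1 value per gene symbol and names no unit. The values were taken as FPKM as deposited by the authors because they are not whole, never negative and sum to between 486080 and 582996 per library. Read totals are not given, so the depth is unknown, and counting error did not enter the model.

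The 13364 genes that averaged 1 FPKM or more were tested on log2(FPKM + 1) by limma 3.58.1 (R 4.3.3) with its trend option, 2-sided, at a Benjamini-Hochberg adjusted p of 0.05. The rule for named genes took each tested collagen, and from each pathway list the 4 called genes of smallest p and, by mean level, the top 2 of those not called; a subset of these is given. Members, lists and ratios were chosen with earlier results of these data known. The alternatives were other pseudocounts, filters and scalings, a replicate block, and left-out libraries. The labels do not say whether the replicate numbers pair the libraries. Deviations from the group means correlated at -0.0541, -0.118 and -0.124 between libraries of the same number. With so few libraries per group, these values cannot settle whether the numbers pair them. On simulated data with 200 changed genes among 13364, 64% of the 2-fold and 94% of the 4-fold changes were found, and 5.39% of the calls were unchanged genes. The changed genes were drawn from the more abundant genes only, and both groups had the same spread. They were also far fewer than the 6023 genes called in the data, and the adjustment depends on how many genes differ. These shares thus do not describe genes of low level, groups of unequal spread or a comparison with so many calls. Positions are from GENCODE M21 (GRCm38, also called mm10) and promoter windows from RefSeq (GRCm38.p6), which listed 35 of the 44 genes.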

Additional observations from a re-analysis of the deposited data

How the results depend on the processing

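Over 14 alternatives the 28 tested collagen genes gave 387 values, of which 358 kept their direction and side of the threshold, 24 no longer passed, 2 newly passed and 3 turned, all 3 in genes that had not passed: Col27a1 under quantile normalization (0.203) and without tumour 1 (0.0186), and Col17a1 without tumour 3 (0.0175). With 1 library left out, Col27a1 ranged from -0.53 to 0.0186 and Col17a1 from -0.514 to 0.0175. With 1 library left out, 7 to 8 collagen genes were higher and 15 to 18 lower, and over all genes 2043 to 3094 were higher and 2174 to 3308 lower. Without glands 1 and 3 together, 3 collagen genes were higher and 7 lower (760 and 1098 of all genes), with 1 gland left, which was assumed to vary like the tumours. At a mean of at least 5 FPKM, 1864 of all genes were lower. Quantile normalization shifted the median of all genes to 0.12, and the log2 difference of the summed short-chain class from 2.06 to 2.54 and of the transmembrane class from -1.14 to -0.643. The share of higher among all called genes was 58.1% there and 41.6% at a common sum per library, against 48.7% as reported, while the same 24 collagen genes were called in the same direction under each of the 3 other scalings. With no filter Col9a2 no longer passed (adjusted p = 0.0604) and Col10a1, Col23a1, Col26a1, Col6a5 and Col6a6 did. The replicate block, in which numbers not known to pair the libraries take up degrees of freedom, called 23 collagen genes and lost Col9a2 (adjusted p = 0.0528). Over all genes it called 4728, against 6023.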
